A study of Chlorocebus sabaeus with 4 samples.

Results

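The genes described are 37 genes that mark T cells, cytotoxic and natural killer (NK) cells, and B cells, measured in the corpus luteum of vervet monkeys (Chlorocebus sabaeus), an African green monkey. The list of names was drawn up with earlier results of these data known, but no measured value is part of the rule for them. It holds 18 T cell, 12 cytotoxic and NK, and 7 B and plasma cell genes, out of 19775 with a value on the arrays. Measured signal did choose the probe set of the 21 listed genes with more than 1, as the one of highest mean was taken. The arrays' probes were designed on human genes, and all 37 symbols have a counterpart in the RefSeq vervet annotation. Tissue came from 2 adult females of 16 years, monkey 1030 fed ad libitum and monkey 1031 on calorie restriction. From each animal came 2 samples, numbered 1 and 2, which the study set against each other to follow weight change. The labels give neither the order of collection nor the weights. A diet is therefore 1 animal, and diet and animal cannot be told apart. Each sample was 1 array, so every change between samples 1 and 2 of an animal rests on 1 array a side and has no p-value.

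The corpus luteum forms from the ovulated follicle, makes progesterone, and regresses when no pregnancy follows. It is a vascular tissue in which macrophages and lymphocytes are found, and leukocytes are known to enter it around regression. T cells recognise antigen through a receptor whose signal passes through the CD3 chains to the kinases LCK and ZAP70. Cytotoxic T cells and NK cells kill with perforin, granzymes and granulysin stored in granules, and B cells signal through CD79A and CD79B.

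By mean signal over the 4 samples, all 8 markers of luteal steroidogenic cells lay above the 75th percentile of genes (log2 7.07). Their median log2 signal was 11.79 and 8.12 in ad libitum samples 1 and 2, and 10.29 and 11.32 in calorie restriction samples 1 and 2. In ad libitum sample 2, HSD11B1 read 5.68, HSD3B2 6.06 and INHA 6.88, under that percentile, and the other markers stayed above it. Ad libitum sample 2 differed from the rest over the whole array. From 912 to 1031 of the 9888 genes at or above the median gene signal were 2-fold from it in another sample, against 122 to 333 between the remaining samples. Values without it are given beside many of the larger differences between the animals and some of those whose direction it turns.

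The lymphocyte genes were mostly dim. Their median of the 4-sample mean was log2 4.80, below the 5.26 of all genes, and 28 of 37 lay under that median. The 9 at or above it were CD6, CD3D, IL7R, LCK and CD8A of the T cell genes, GNLY, GZMK and PRF1 of the cytotoxic and NK genes, and CD79B of the B cell genes. GNLY alone was above the 75th percentile of genes, at percentile 92.1. Defining genes of each class lay low: CD3G at 3.57, CD28 at 3.59, GZMA at 3.21, the B cell surface gene MS4A1 (CD20) at 3.27 and the B cell coactivator POU2AF1 at 2.51. Detection of single probes was not analysed here, so a low signal is not evidence that a gene was silent. In bulk tissue, fewer cells of a type and less RNA per cell cannot be told apart.

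**Figure D1:**
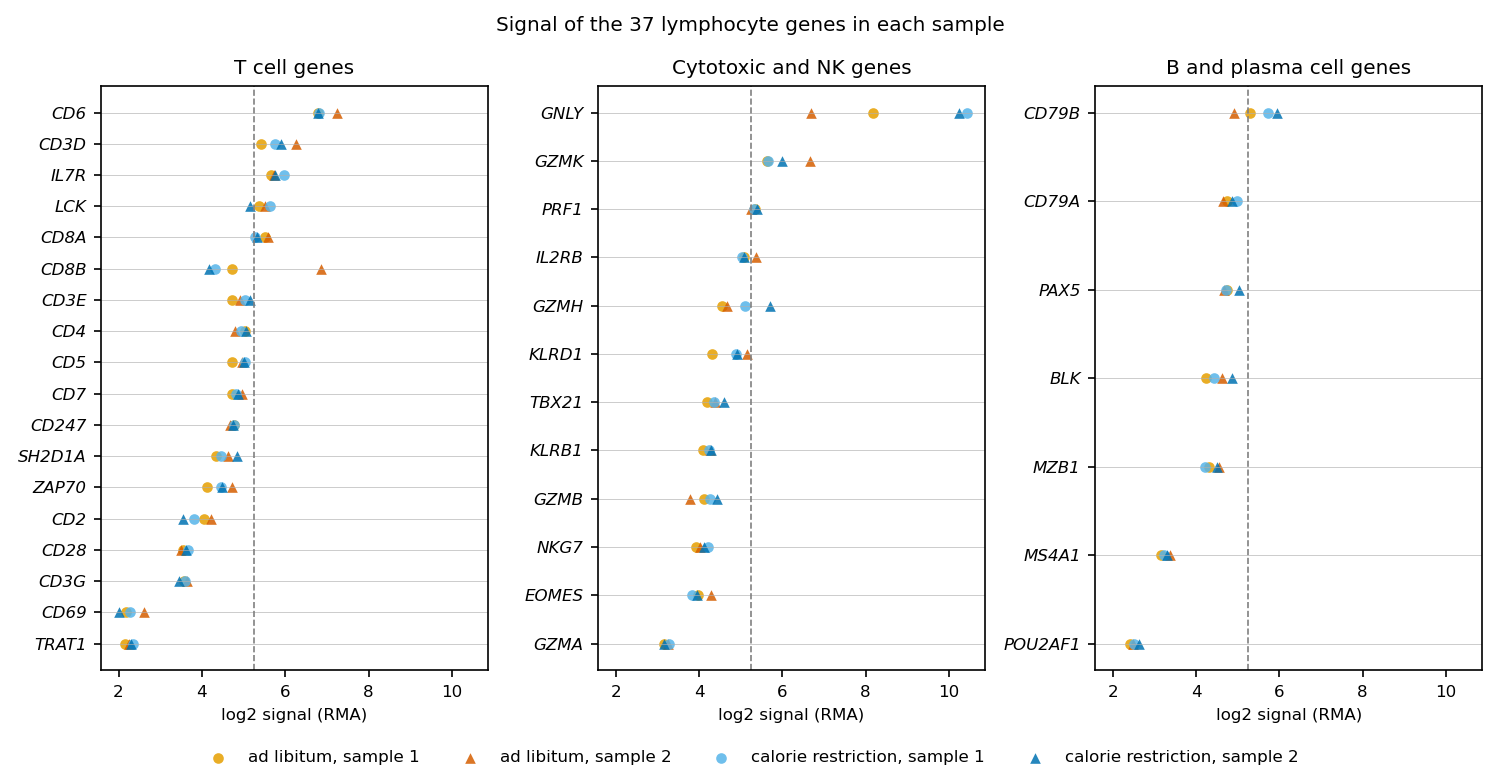
Log2 signal (horizontal axis) of the 37 lymphocyte genes in the 2 ad libitum samples (orange) and the 2 calorie restriction samples (blue), with circles for sample 1 and triangles for sample 2. The dashed line is the median gene mean of 5.26. Most genes sit to its left with the 4 points close together, whereas GNLY, CD8B and GZMK are spread.

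GNLY, which encodes the granule protein granulysin, differed most. It read log2 8.17 and 6.69 in ad libitum samples 1 and 2. In calorie restriction samples 1 and 2 it read 10.44 and 10.23. Both calorie restriction samples were above both ad libitum samples, and the means were 10.34 ± 0.15 and 7.43 ± 1.05 (SD, n = 2 samples of 1 animal each). The difference was 2.91 (SE 0.52), or 7.49-fold, the 8th highest among the 9888 genes. In limma, with moderated tests over these genes, its unadjusted p was 0.0027 and its Benjamini-Hochberg adjusted p 0.596, so it did not pass the threshold of 0.05. No gene passed, which is 0% of those tested. The arrays hold 2 probe sets for GNLY. The dimmer one read 5.67 and 5.19 in the ad libitum animal and 6.80 and 6.59 in the calorie restriction animal, a difference of 1.27, in the same order as the brighter one. Without ad libitum sample 2 the difference was 2.17 (limma adjusted p 0.131). Without its sample 1 it was 3.65 and the limma adjusted p was 0.0084, in a fit that called 474 of 9888 genes (4.79%). Each of these fits leaves the ad libitum animal with 1 array, which is assumed to vary as the 2 calorie restriction arrays do.

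Within the ad libitum animal GNLY was 2.79-fold lower in sample 2 (log2 change -1.48), and by the dimmer probe set -0.49. Within the calorie restriction animal the change was -0.21. By size, GNLY had the 289th largest decrease of the 9888 genes in the ad libitum animal.

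**Figure D2:**
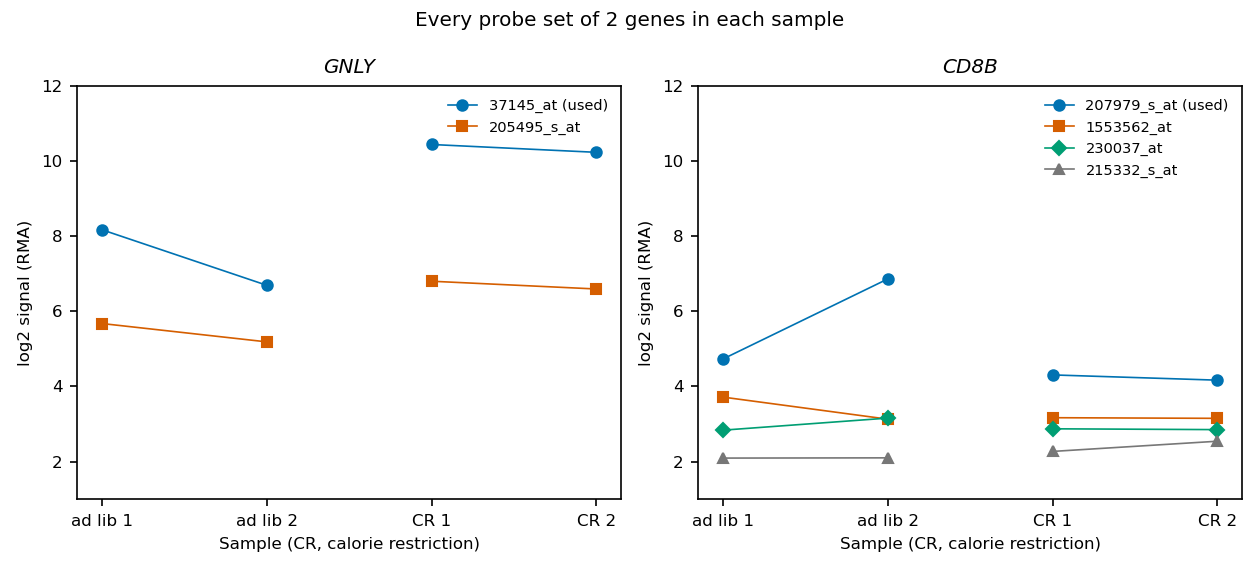
Log2 signal (vertical axis) of every probe set of GNLY (left) and CD8B (right) in the 4 samples, with lines joining the samples of an animal. Both GNLY probe sets are higher in the calorie restriction animal (CR), while of the 4 CD8B probe sets only the brightest is high in ad libitum sample 2, at 6.86.

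Of the other 11 cytotoxic and NK genes, GZMH, GZMB and NKG7 also had both calorie restriction samples above both ad libitum samples, by less than 2-fold and below the level filter. EOMES, also below the filter, had both calorie restriction samples below both ad libitum samples. With GNLY, 4 of the 12 were above without overlap and 1 below, beside 18.3% and 17.5% of all genes. GZMK, a granzyme of memory T cells, read 5.63 and 6.66 in the ad libitum animal and 5.65 and 6.0 in the calorie restriction animal. Its ad libitum sample 2 was 2.04-fold above sample 1 (1.03), and the animals overlapped (difference -0.33, SE 0.38, limma adjusted p 0.947, and 0.19 without ad libitum sample 2). PRF1, perforin, read 5.34 and 5.24, then 5.32 and 5.39, so the 4 samples lay close together. Its difference between animals was 0.061 (SE 0.15, limma adjusted p 0.975).

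Apart from CD8B, genes under the level filter whose values are given were picked after those values had been seen. GZMH, a granzyme of NK and CD8 T cells, read 4.55 and 4.69 in the ad libitum animal and 5.11 and 5.71 in the calorie restriction animal. The animals did not overlap (difference 0.79, and 0.86 without ad libitum sample 2). GZMH lay under the level filter. In the fit of all 19775 genes, its limma adjusted p was 0.842. KLRD1, the CD94 receptor chain of NK cells, read 4.32 and 5.15, then 4.89 and 4.90, and of its other probe sets 1 showed a like change in the ad libitum animal (0.73) and 1 did not (-0.084). GZMB, the granzyme that activates caspases, read 4.12 and 3.79, then 4.26 and 4.42, a difference of 0.38. NKG7, a granule membrane protein, read 3.94 and 4.03, then 4.23 and 4.12, a difference of 0.19. The transcription factors of the cytotoxic programme, TBX21 and EOMES, differed by 0.19 and -0.25 between the animals, or 0.29 and -0.082 without ad libitum sample 2. Across the 12 genes the median difference was 0.12, with 9 positive and 3 negative, and 0.20 without that sample.

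CD8B, the beta chain of the CD8 co-receptor, was the T cell gene with the largest differences. It read 4.73 and 6.86 in ad libitum samples 1 and 2, and 4.31 and 4.17 in the calorie restriction samples. Ad libitum sample 2 was 4.38-fold above sample 1 (2.13), the 41st largest increase of 19775 genes, and alone stood high. The 3 other CD8B probe sets changed by -0.59, 0.32 and 0.0064 there, and none of them went above log2 3.72 in any sample. CD8A, the alpha chain of the same co-receptor, read 5.52 and 5.58 in the ad libitum animal and 5.28 and 5.31 in the other. The calorie restriction minus ad libitum difference of CD8B was -1.56, and -0.49 without ad libitum sample 2. That of CD8A was -0.26 (SE 0.15, limma adjusted p 0.914).

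The CD3 chains and proximal kinases overlapped or differed little between the animals. CD3D read 5.42 and 6.26 in the ad libitum animal and 5.75 and 5.89 in the calorie restriction animal, and the latter lay between the former. Its change in the ad libitum animal was 1.79-fold (0.84), and its difference between animals -0.019 (SE 0.31, limma adjusted p 0.993), which was 0.40 without ad libitum sample 2. CD3E, CD3G and CD247, the other CD3 and zeta chains, changed by 0.19, 0.089 and -0.093 in the ad libitum animal. LCK read 5.37 and 5.52, then 5.64 and 5.17, with overlapping animals (limma adjusted p 0.987). ZAP70, below the level filter, read 4.11 and 4.73, then 4.45 and 4.47.

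Among receptors, CD6, a co-receptor that binds ALCAM, was the brightest T cell gene, at 6.78 and 7.24 in the ad libitum animal and 6.80 and 6.79 in the calorie restriction animal. Its level rests on 1 of 7 probe sets, as the rest had means between 2.46 and 3.78. IL7R, the receptor for the survival cytokine IL-7, read 5.67 and 5.74, then 5.97 and 5.74, and differed between animals by 0.16 (SE 0.17, limma adjusted p 0.941). CD4, which macrophages of primates can also express, read 5.03 and 4.79, then 4.94 and 5.05. CD69, an early activation marker, lay at 2.01 to 2.61. Across the 18 T cell genes the median difference between animals was 0.011, with 9 positive and 9 negative, and 0.070 without ad libitum sample 2.

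B cell genes other than CD79B differed by at most 0.23 between the animals. CD79B, a signalling chain of the B cell receptor, read 5.30 and 4.92 in the ad libitum animal and 5.72 and 5.94 in the calorie restriction animal, and the animals did not overlap. The difference was 0.72 (SE 0.20), or 1.64-fold, with an unadjusted limma p of 0.017 and an adjusted p of 0.827. The ad libitum mean of 5.11 lay under the level filter of 5.26, so CD79B entered this test only through its calorie restriction samples. In the fit of all 19775 genes its limma unadjusted p was 0.016 and its adjusted p 0.830. The difference came from the brightest of 3 probe sets, and with the mean of all 3 it was 0.34. With only the probe set of specific design it was 0.095, and without ad libitum sample 2 it was 0.53. Its partner CD79A read 4.74 and 4.64, then 4.99 and 4.86. The B lineage factor PAX5 differed by 0.16, the kinase BLK by 0.21, MS4A1 by 0.0081, and MZB1, an endoplasmic reticulum protein of plasma and marginal zone B cells, by -0.079 (0.050 without ad libitum sample 2). The median over the 7 genes was 0.16, with 6 positive, and 0.15 without ad libitum sample 2. Both calorie restriction samples were above both ad libitum samples in 3 of the 7 and below them in 0, beside 18.3% and 17.5% of all genes.

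**Figure D3:**
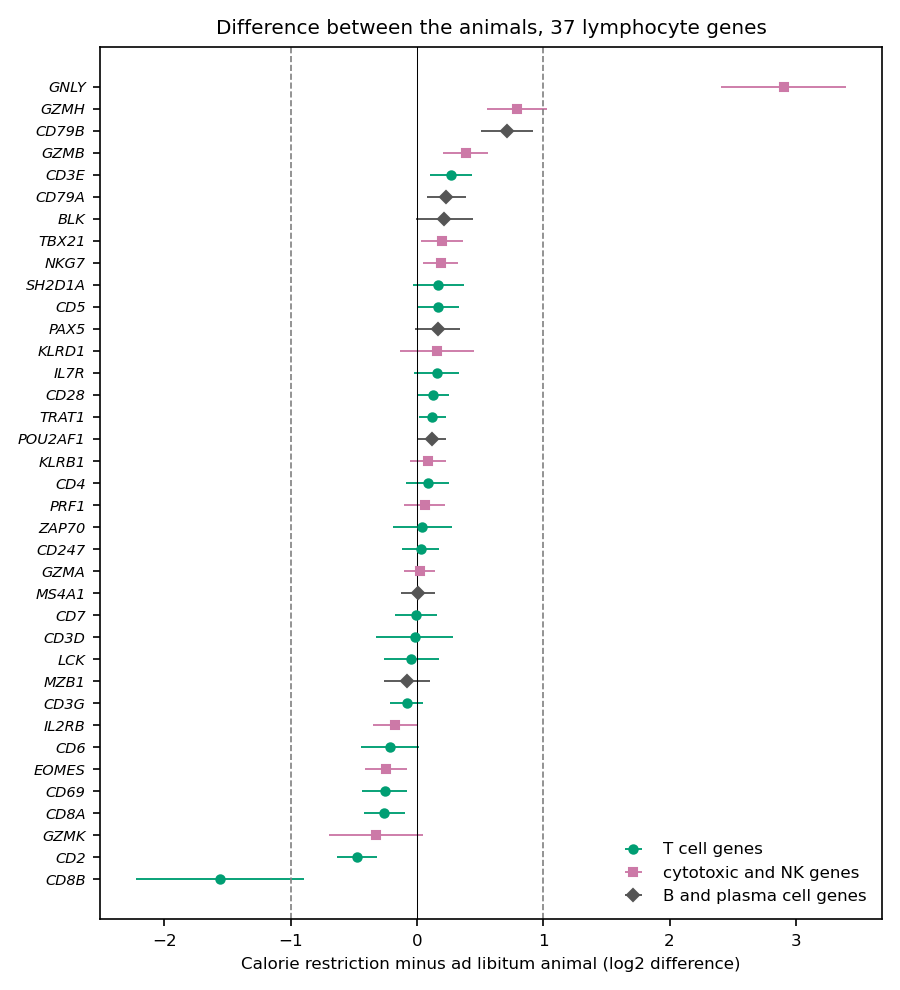
Calorie restriction minus ad libitum difference in log2 signal (horizontal axis) of each of the 37 genes, with the standard error of the limma fit over all genes as the bar (n = 2 samples of each animal). Dashed lines mark 2-fold, which GNLY (2.91) and CD8B (-1.56) exceed, while 33 of 37 genes lie within 0.5 of zero.

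The 37 genes were then set against all genes. Both calorie restriction samples were above both ad libitum samples in 12 of 37, where 18.3% of all genes were, and below them in 4 of 37, where 17.5% were. The difference was positive in 24 and negative in 13, and in 10003 and 9771 of all 19775 genes. The median difference of the 37 was 0.084 and that of all genes 0.0032, and 33 of the 37 were within 0.5 of zero. Without ad libitum sample 2, 23 of the 37 were above and 5 below the remaining ad libitum sample, where 36.1% and 34.5% of all genes were, and the median was 0.15. Of the 9 genes past the level filter, 0 passed limma's adjusted threshold and 2, GNLY and CD79B, had an unadjusted p under 0.05, as did 522 of the 9888 genes. CD79B passed the filter only through its calorie restriction samples. In the fit with no level filter, 0 of 37 passed and 4 had an unadjusted p under 0.05, as did 1133 of the 19775 genes, with CD2 (-0.47) and GZMH added. CD2, an adhesion receptor of T and NK cells, was the only one of these 4 that was lower in the calorie restriction animal.

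Within the ad libitum animal, 2 of 37 genes were 2-fold higher in sample 2, CD8B and GZMK, where 1.96% of all genes were. GNLY was the 1 gene that was 2-fold lower, where 3.83% of all genes were. The sign was positive in 28 of the 37 genes, and in 10343 of all 19775. The class medians were 0.18 for T cell, 0.14 for cytotoxic and NK and 0.058 for B cell genes, beside 0.017 for all genes. Within the calorie restriction animal 0 of 37 genes were 2-fold apart, where 0.799% of all genes were, and the largest change was that of GZMH (0.60). The class medians there were -0.016, 0.067 and 0.22, beside 0.0028 for all genes.

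**Figure D4:**
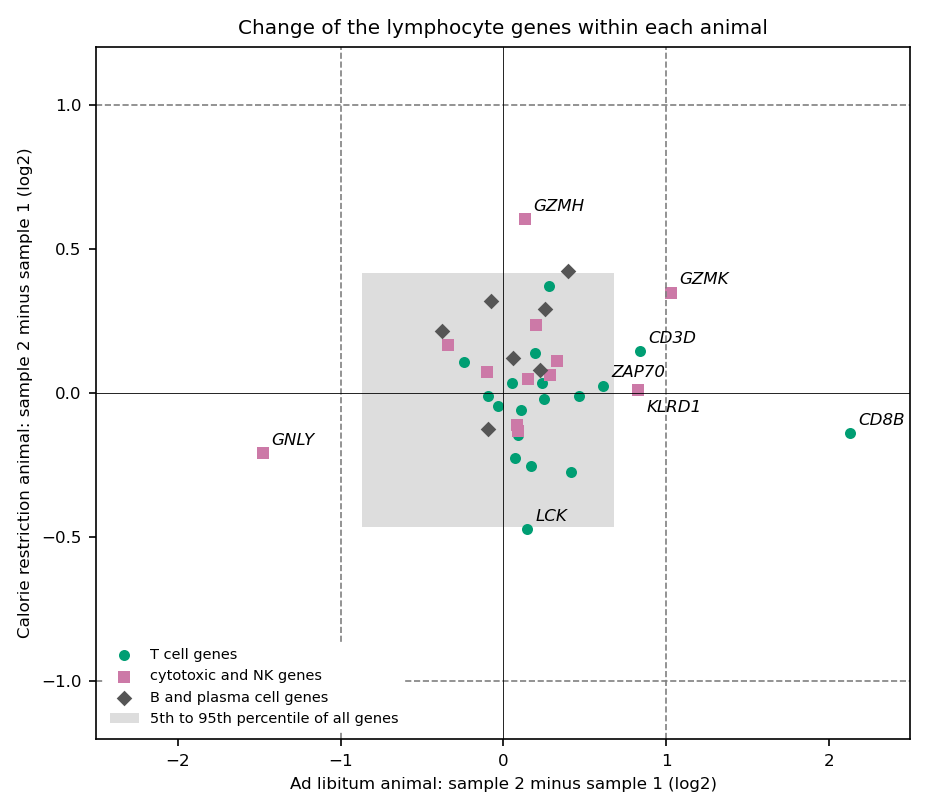
Change from sample 1 to sample 2 in log2 signal of the 37 genes in the ad libitum animal (horizontal axis) and the calorie restriction animal (vertical axis). Dashed lines mark 2-fold and the grey box the central range of all genes, from -0.87 to 0.68 and from -0.46 to 0.42. CD8B (2.13), GZMK (1.03) and GNLY (-1.48) lie beyond 2-fold along the horizontal axis and no gene does along the vertical axis.

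Other genes of the same pathways were counted from lists in which the members were not included. Of 22 measured T cell signalling and identity genes, 3 were 2-fold higher in ad libitum sample 2 and 0 lower, where 1.96% and 3.83% of all genes were. They were TRBC1, a constant region of the T cell receptor beta chain (6.03 and 7.79, against 5.98 and 6.09 in the calorie restriction animal), the adaptor SKAP1 (3.88 and 4.91, against 3.86 and 3.77) and the T lineage factor BCL11B (4.76 and 5.84, against 4.75 and 4.83). In each of these ad libitum sample 2 was the only high sample, as for CD8B. The symbol TRBC1 had no match in the RefSeq vervet annotation, and its signal is that of 1 of 3 probe sets, not one of specific design. The list's median change was 0.34. In the calorie restriction animal 1 of the 22 was 2-fold lower, LEF1, a Wnt pathway factor (6.18 and 5.08). In that animal 0.799% of all genes were 2-fold apart in either direction.

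Of 19 further cytotoxic and NK genes, NCAM1 was 2-fold higher in ad libitum sample 2 and SRGN 2-fold lower, beside 1.96% and 3.83% of all genes. NCAM1 encodes CD56, an adhesion molecule of NK cells that other cell types also make, and read 6.80 and 8.45 against 5.21 and 5.79 in the calorie restriction animal. Its difference between the animals was -2.13 (limma adjusted p 0.827), opposite to that of GNLY, and -1.30 without ad libitum sample 2. SRGN, the granule proteoglycan serglycin, which many blood-derived and endothelial cells make, read 11.73 and 9.08, then 10.83 and 11.13. Of 23 further B and plasma cell genes only BLNK, a B cell adaptor that macrophages also express, was 2-fold apart, at 5.79 and 7.47 in the ad libitum animal and 5.75 and 4.60 in the other. It was 2-fold higher in ad libitum sample 2, as were 1.96% of all genes. In the calorie restriction animal, where it was 2-fold lower in sample 2, 0.799% of all genes were 2-fold apart in either direction. None of these 3 lists had a gene past limma's adjusted threshold between the animals, and 0, 1 and 1 of their genes past the level filter had an unadjusted p under 0.05.

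Signals that recruit and sustain lymphocytes had the most 2-fold differences within animals of these 4 lists. They also had the most genes past the level filter, 11 of 24, against 6 of 22, 2 of 19 and 6 of 23. Of these 24 measured cytokine, chemokine and adhesion genes, 4 were lower and 1 higher in ad libitum sample 2, where 3.83% and 1.96% of all genes were. In calorie restriction sample 2, 3 were lower, where 0.799% of all genes were 2-fold apart in either direction. The former were IL15, IL18, CXCL9 and CXCL10, with CXCL12 higher, and the latter were IL15, CXCL10 and CXCL12. CXCL9, a ligand of the T cell chemokine receptor CXCR3, read 6.87 and 4.31 in the ad libitum animal and 5.75 and 4.90 in the other. IL15, a survival cytokine of NK and memory CD8 T cells, read 6.68 and 5.45, then 8.22 and 7.01, so that it was lower in sample 2 of both animals and higher in the calorie restriction animal by 1.55 (limma adjusted p 0.879), or 0.93 without ad libitum sample 2. CCL21, which draws CCR7-bearing T cells, read 8.0 and 7.99, then 6.32 and 5.72, a difference of -1.97 (limma unadjusted p 0.00067, adjusted p 0.504). Without ad libitum sample 2 the difference was -1.98. CCL21 was the one of the 24 that was 2-fold lower in the calorie restriction animal with no overlap, and IL15 the one that was 2-fold higher.

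Markers of other cells differed between the same samples. Of 8 genes listed as pan-leukocyte markers, 4 were 2-fold higher in ad libitum sample 2, as were 1.96% of all genes. CD8B, GZMK and TRBC1 were also high there. The list's median change was 0.85, but its brightest gene, LAPTM5, was lower there (9.31 and 8.96). PTPRC, the CD45 gene, read 7.46 and 8.56, then 7.59 and 7.25, and RAC2 7.11 and 9.32, then 7.13 and 7.11. The symbol PTPRC had no match in the RefSeq vervet annotation. The log2 of the list's summed signal was 10.53 and 11.26 in the ad libitum animal and 10.59 and 10.40 in the calorie restriction animal. All 8 luteal markers were 2-fold lower in ad libitum sample 2, where 3.83% of all genes were. Their summed signal was 14.87 and 12.06, then 13.52 and 14.26. Macrophage markers (11 of 12 measured) had a summed signal of 11.17 and 11.76, then 11.67 and 11.60. In ad libitum sample 2, 2 of 11 genes (AIF1, FCER1G) were 2-fold higher and 1 (CD163) lower, beside 1.96% and 3.83% of all genes. The part of these cells in the lymphocyte gene differences was not tested.

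Markers of red blood cells and vessels, and some of macrophages, platelets and neutrophils, were higher in the calorie restriction animal, though none passed limma's adjusted threshold. Several of the vessel differences rested on ad libitum sample 2. All 5 measured red blood cell markers of 8 listed had both calorie restriction samples above both ad libitum samples, where 18.3% of all genes did. Of these 5, 3 lay under the level filter. The haemoglobin gene HBB read 11.70 and 10.48, then 12.33 and 12.96, and the list's summed signal was 11.75 and 10.58, then 12.38 and 13.00. The HBB difference was 1.56, and 0.95 without ad libitum sample 2. Of 9 endothelial markers 7 were above without overlap, with a summed signal of 11.47 and 10.59, then 12.05 and 11.66. Without ad libitum sample 2 the difference of CDH5 fell from 1.25 to 0.36, KDR from 1.01 to 0.11 and PECAM1 from 0.79 to 0.077. That of VWF turned from 0.26 to -0.11. TIE1, TEK, CLDN5, EMCN and ENG were then at 1.05, 0.79, 0.70, 0.61 and 0.089. Of the 11 macrophage markers 5 were above and 0 below without overlap, beside 18.3% and 17.5% of all genes. MRC1 (1.31) and CD163 (1.27) were above by over 2-fold, but by 0.86 and 0.63 without ad libitum sample 2. Of the mast cell genes (4 of 5 measured), only KIT passed the level filter, at 8.48 and 7.42, then 9.86 and 9.96. Its difference was 1.96, and 1.44 without ad libitum sample 2. The list's summed signal was 8.75 and 7.94, then 9.96 and 10.06, and followed KIT: CPA3 was lower in the calorie restriction animal (-0.57), TPSAB1 and HDC differed by -0.019 and 0.018, and the list's median difference was -0.0007. The platelet list summed to 7.52 and 7.67, then 8.07 and 7.79, and the neutrophil list to 6.90 and 6.72, then 6.94 and 7.01. Of 5 platelet markers 3 were above without overlap, and of 8 neutrophil markers 4, with 0 below in either list. In these lists 3 and 7 genes lay under the level filter. No marker is at 0 on this scale, and the part of these cells in the GNLY difference was not tested.

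**Figure D5:**
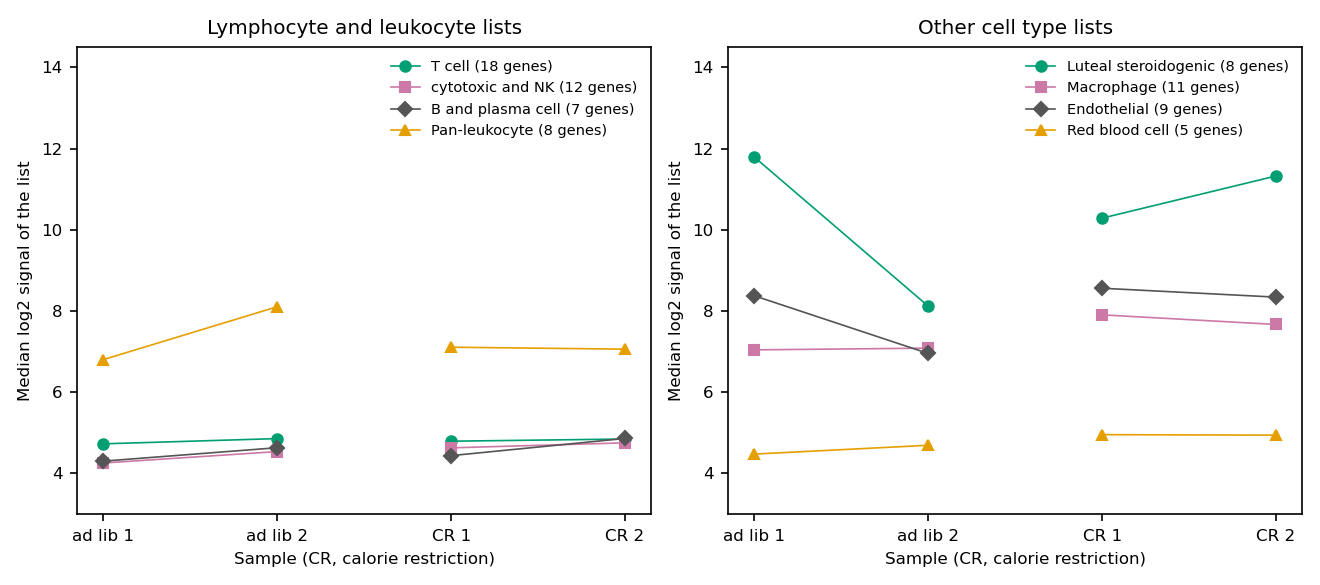
Median log2 signal (vertical axis) in each sample of the 3 lymphocyte gene classes and 8 pan-leukocyte genes (left), and of luteal, macrophage, endothelial and red blood cell markers (right), with lines joining samples of an animal. The lymphocyte medians stay between 4.26 and 4.86, while the pan-leukocyte median reaches 8.11 and the luteal median 8.12 in ad libitum sample 2.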

How the data were processed

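Frozen corpus luteum RNA was amplified, labelled with biotin and hybridised to 1 array for each sample, per the labels' protocols. The deposited table gives log2 signal for each probe set, from RMA in Affymetrix Power Tools per the submitters' processing notes. Their versions are not stated in these sources. Background and detection were not analysed here, and having 4 arrays limits precision. Of 54675 probe sets, 41091 carried 1 gene symbol in the platform annotation and were used. For each gene the probe set of highest 4-sample mean was taken; the members had 72 probe sets. Tests used genes with a mean at or above the median of 5.26, and members below it are given as values. A probe mismatched to vervet sequence can lower a signal, and close relatives such as granzymes can share it.

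The animals were compared with limma 3.58.1 in R 4.3.3, using lmFit and eBayes (trend on signal) and Benjamini-Hochberg adjustment over all genes, at an adjusted p under 0.05. This left 2 residual degrees of freedom. The p-values reflect how samples of a single animal varied, not how animals vary. The procedure was tested on simulated data. Changes within an animal were called at 2-fold, a rule of size. Members and lists were chosen with earlier results of these data known. Values in all samples were given for members past the level filter, 2-fold apart within an animal, or 2-fold apart without overlap between animals. Alternatives were other level filters, cyclic loess, the mean of all probe sets, only probe sets of specific design, no trend, sample number as a block, 1.5-fold, and each sample left out.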

Additional observations from a re-analysis of the deposited data

Results flagged for a closer look

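CD8B changed by 2.13 on the log2 scale from sample 1 to sample 2 in the ad libitum animal and by -0.14 in the calorie restriction animal, opposite directions with a 2-fold change in the former. The difference between these changes was not tested, as each rests on 1 array a side, and 3 other CD8B probe sets did not show it.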

How the results depend on the processing

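The count of genes called between the animals was 0 under every alternative other than leaving out a sample, where it ranged from 0 to 474, and that of the 37 members from 0 to 1 (GNLY). Both upper values came without ad libitum sample 1. With sample number as a replicate block, 0 genes and 0 members were called. The samples share only a number, their deviations correlated at -0.27 across genes, and with the numbers crossed, a setting chosen after seeing the data, 0 genes were called. GNLY kept its direction in all 12 alternatives, between 2.09 and 3.65, with limma adjusted p from 0.0084 to 1.00. The T cell median difference ranged from -0.12 to 0.070 with a sample left out. The cytotoxic and NK median was 2.91 at the filter of the 75th percentile, where GNLY alone remained and no T or B cell gene did. Members 2-fold apart in the ad libitum animal numbered 1 when probe sets were averaged and 6 at 1.5-fold. In the calorie restriction animal 1 passed 1.5-fold. With members past the level filter only, the ad libitum change had medians of -0.10 for 3 cytotoxic and NK genes and -0.38 for 1 B cell gene. Of 403 other values of single members, 393 kept within the spread between samples and 9 moved further. The remaining 1 was GNLY without ad libitum sample 1, at 3.65. Many of these values could not have moved by this rule. Dropping the level filter or the trend, or adding a block, leaves a member's difference unchanged. Leaving out 1 sample cannot shift a difference beyond that spread. The count is therefore no measure of how stable the differences are.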
